A study of Homo sapiens with 2 samples.

Results

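In all, 8 genes of early heart formation were followed in differentiating human embryonic stem cells: HAND1, HAND2, NKX2-5, ISL1, MEF2A, MEF2C, MEF2D and SMYD1. They were taken by NCBI gene number from the deposited tables, which list 18518 genes in all, and 7 of the 8 were listed, each with at least 10 counts in both libraries. The exception, SMYD1, was listed in neither table and was taken as 0. The cells were of H1, a widely used human embryonic stem line, and 1 RNA library came from cells labelled Wild Type and 1 from cells labelled MEIS1-/-. Both had been given activin A (40 ng/ml) with BMP4 (50 ng/ml) over 2 days, followed by VEGF (40 ng/ml) with bFGF (50 ng/ml), and both were collected at day 3 of differentiation towards blood. The labels do not give the deleted part of MEIS1, the number of clones or the number of cultures.

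The proteins encoded by these genes form much of the regulatory core of the early heart. HAND1 and HAND2 are basic helix-loop-helix factors of the lateral and cardiac mesoderm, and HAND1 is also a marker of extraembryonic mesoderm. NKX2-5 is a homeodomain factor of cardiac progenitors and ISL1 a LIM homeodomain factor of the second heart field. The MEF2 proteins are MADS-box factors that drive muscle genes, and MEF2C also acts in the endothelium. SMYD1 is a histone methyltransferase of heart and skeletal muscle whose gene is a target of MEF2C. Several of these genes are turned on as mesoderm forms, beside the progenitors of blood and endothelium that arise from the same germ layer. The comparison asked how their RNA levels differed at day 3 when MEIS1, a homeodomain partner of HOX and PBX proteins, was deleted.

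The HAND pair and MEF2C, on which the results turn, are shown here by the 250 bases before an annotated transcript start, read from RefSeq on build GRCh38.p14, which is not the hg19 build of the data. Of the 8 genes, 7 had at least 1 such window and NKX2-5 had none. The HAND windows lie on the minus strand at chr5:154478228-154478477 for HAND1 and chr4:173530230-173530479 for HAND2. Capitals mark GATAA or its reverse complement TTATC, the core bound by GATA factors, which are known regulators of HAND genes.
HAND1: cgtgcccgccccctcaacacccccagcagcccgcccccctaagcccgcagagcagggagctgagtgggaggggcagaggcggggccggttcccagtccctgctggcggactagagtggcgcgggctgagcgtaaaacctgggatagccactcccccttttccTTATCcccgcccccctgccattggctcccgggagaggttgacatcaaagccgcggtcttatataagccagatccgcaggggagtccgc
HAND2: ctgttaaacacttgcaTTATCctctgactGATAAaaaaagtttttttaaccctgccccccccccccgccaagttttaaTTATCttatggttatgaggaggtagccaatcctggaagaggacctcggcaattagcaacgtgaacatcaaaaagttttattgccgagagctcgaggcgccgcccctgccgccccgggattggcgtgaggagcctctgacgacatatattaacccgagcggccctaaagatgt
The HAND1 window held 1 match and the HAND2 window 3, and 20.4% of all 35116 such windows held at least 1. Matches were also in the ISL1 window, in 1 of 3 windows of MEF2A and in 3 of 7 of MEF2C. MEF2D and SMYD1 had none. The core of MEIS binding sites, TGACAG or CTGTCA on the other strand, was in neither HAND window and in 13.0% of all windows. It was in 3 of the 7 windows of MEF2C, among them the one at the start farthest upstream, on the minus strand at chr5:88904106-88904355, where capitals mark it.
MEF2C: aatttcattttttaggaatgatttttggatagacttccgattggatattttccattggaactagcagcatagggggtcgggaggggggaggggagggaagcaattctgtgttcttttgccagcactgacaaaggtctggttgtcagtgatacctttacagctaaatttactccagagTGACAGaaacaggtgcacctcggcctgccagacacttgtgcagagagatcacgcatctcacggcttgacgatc
The base composition of the HAND windows differed, with 67.2% G and C for HAND1 and 49.6% for HAND2, against a median of 58% over all windows. The tables give 1 value per gene and do not show which start was used, and a match of letters is not a binding site. MEF2C, with 7 windows against 1 for each HAND gene, also had more places for a match.

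The wild-type table listed 17562 genes with 5202875 estimated counts and the table of the MEIS1-/- library 17696 genes with 5296440. Counts are estimated reads per gene, FPKM is the authors' level per length and depth, and ratios are those of the MEIS1-/- library over wild type from counts scaled to equal depth. Each ratio has an exact 95% interval that covers counting error only, and a gene is called higher or lower where that interval excludes 1. With 1 library of each genotype there is no test and no replicate check, and each difference is one between these 2 libraries. MEIS1 had 89 counts in wild-type cells and 68 in the MEIS1-/- library, a ratio of 0.759 (0.543 to 1.05), so the label could not be checked by its level. Directions are therefore those of the library that carries the MEIS1-/- label. In such bulk RNA, fewer cells of a type and less RNA per cell cannot be told apart.

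Of the 7 listed heart genes, HAND2, MEF2C and NKX2-5 had ratios of at least 2-fold above wild type in the MEIS1-/- library, HAND1 was higher by a smaller amount, ISL1 was lower, and MEF2A and MEF2D had intervals that included 1. Over all 14381 genes with at least 10 counts in a library, 2.90% were at least 2-fold higher with an interval above 1, and 1.48% of the 10865 genes with at least 50 counts. An interval above 1, at any size, was found for 4 of the 7, for 15.4% of all genes and for 17.4% of those with at least 50 counts. An interval below 1 was found for 1 of the 7, for 14.7% of all genes and for 16.7% of those with at least 50 counts. None of the 7 was at least 2-fold lower, against 2.95% of all genes and 1.57% of those with at least 50 counts. The median log2 ratio of the 7 was 0.26, and that of all genes 0.0032. Each group of values below is a description of a small set of chosen genes.

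**Figure D1:**
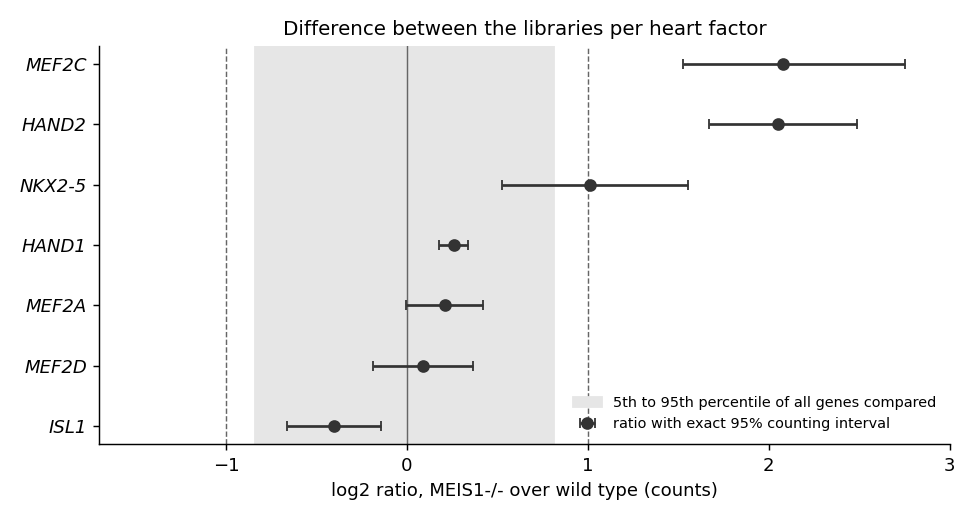
Log2 ratios of the MEIS1-/- library over wild type (x axis, from counts) for the 7 listed heart factors (y axis), with exact 95% counting intervals as bars, the 5th to 95th percentile of all genes compared (-0.84 to 0.82) in grey and dashed lines at 2-fold. MEF2C, HAND2 and NKX2-5 lie to the right of the grey range, and the other 4 lie inside it.

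HAND1 was by far the most abundant of these genes. It had 2291 counts in wild-type cells (exact 95% Poisson interval 2198 to 2387) and 2767 in the MEIS1-/- library (2665 to 2872), or 253.65 and 300.9 FPKM. Both levels were among the highest 1.01% and 0.870% of listed genes. The intervals of the counts did not overlap, and the ratio was 1.20 (1.13 to 1.26), a log2 ratio of 0.26 that 21.7% of all genes compared reached or passed.

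HAND2, the paralogue that is needed for the right ventricle and limb bud, started from a far lower level. It had 63 counts in wild-type cells (48.4 to 80.6) and 267 in the MEIS1-/- library (236 to 301), or 5.12 and 21.33 FPKM. The MEIS1-/- library was thus the higher of the pair, 4.14-fold (3.18 to 5.61), and the counting intervals did not overlap. The log2 ratio was 2.05, and HAND2 ranked 108th among the 14381 genes compared by this ratio. HAND2-AS1, the antisense gene that starts beside HAND2, had 1 and 3 counts, and adding these to HAND2 gave a log2 ratio of 2.04.

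The ratio of HAND2 exceeded that of HAND1 by 3.51 times (2.64 to 4.72, exact conditional interval of the counts), the first of 8 pairs of genes set side by side in this way. Pair values used counts without a pseudocount, so they differ slightly from quotients of the ratios printed per gene. Summed over both genes, the HAND level was 258.77 FPKM in wild type and 322.23 in the MEIS1-/- library. HAND2 made up 1.98% of that sum in wild type and 6.62% in the MEIS1-/- library, and HAND1 the remaining 98.0% and 93.4%. HAND1 thus supplied nearly all HAND RNA in both libraries. By counts, the share of HAND2 was 2.68% (2.06 to 3.41, exact binomial 95% interval) and 8.80% (7.82 to 9.86).

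**Figure D2:**
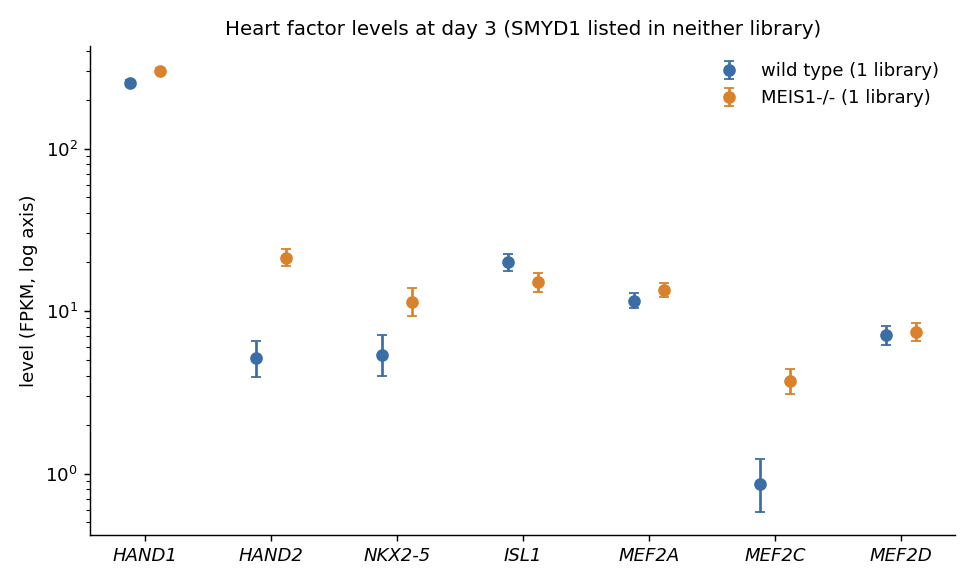
Levels of the 7 listed heart factors in FPKM (y axis, log scale) in the wild-type library (blue) and the MEIS1-/- library (orange), with bars for exact 95% Poisson intervals of the counts carried to FPKM. HAND1 stands above the others at 253.65 and 300.9, and the bars of the pair do not overlap for HAND1, HAND2, NKX2-5, ISL1 and MEF2C and overlap for MEF2A and MEF2D.

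NKX2-5 and ISL1, the homeodomain genes of cardiac progenitors, differed in opposite directions. NKX2-5 had 49 counts in wild-type cells (36.3 to 64.8) and 101 in the MEIS1-/- library (82.3 to 123), or 5.39 and 11.41 FPKM. It was 2.02-fold higher (1.44 to 2.93), close to the 2-fold threshold, and fell under it with a pseudocount of 5 (log2 ratio 0.96) and from FPKM with a pseudocount of 1 (0.96). The listed length of NKX2-5, which has 3 transcripts in the files, was 1758.85 bases in wild type and 1684.28 in the other library, 4.24% shorter. A length that is not whole is an average over transcripts, and the files do not give their separate levels.

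ISL1 had 284 counts in wild-type cells (252 to 319) and 217 in the MEIS1-/- library (189 to 248), or 20 and 15.01 FPKM. It was the only one of the 7 that was lower, 1.32-fold (1.10 to 1.59), with a log2 ratio of -0.40. The ratio of NKX2-5 exceeded that of ISL1 by 2.69 times (1.81 to 4.05). ISL1-DT, a noncoding gene that starts beside ISL1, had 42 and 37 counts and a ratio of 0.875 (0.545 to 1.39), so its interval included 1. ISL1 also belongs to the list of amnion and trophoblast markers used below.

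Among the MEF2 genes the difference was in MEF2C. It had 29 counts in wild-type cells (19.4 to 41.6) and 127 in the MEIS1-/- library (106 to 151), or 0.86 and 3.7 FPKM. The level was low in both libraries, at ranks 13878 of 17562 and 10345 of 17696 listed genes. The ratio was 4.22 (2.88 to 6.73), a log2 ratio of 2.08 and rank 101 of the 14381 genes compared. From FPKM with a pseudocount of 1, which weighs heavily at such levels, the log2 ratio was 1.34, and with a pseudocount of 0.1 it was 1.98.

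MEF2A and MEF2D, which are expressed in most tissues, were close to level between the libraries. MEF2A had estimated counts of 340.84 and 398.17, or 11.56 and 13.47 FPKM, with a ratio of 1.15 (0.997 to 1.34). Its estimated counts were not whole, and the files do not show how its reads were assigned. Its interval lay at the border and excluded 1 with DESeq2 size factors (1.17, 1.01 to 1.35), while it included 1 with TMM, total counts and upper quartile factors. MEF2D had 216 and 232 counts, or 7.12 and 7.44 FPKM, with a ratio of 1.06 (0.879 to 1.29).

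Within the family, the ratio of MEF2C exceeded that of MEF2A by 3.75 times (2.42 to 5.97) and that of MEF2D by 4.07 times (2.58 to 6.59). The ratios of MEF2A and MEF2D differed by 1.09 times (0.853 to 1.38), an interval that included no difference. The summed level of MEF2A, MEF2C and MEF2D was 19.54 FPKM in wild type and 24.61 in the MEIS1-/- library. MEF2C supplied 4.40% of it in wild type and 15.0% in the MEIS1-/- library, while MEF2A supplied 59.2% and 54.7% and MEF2D 36.4% and 30.2%. MEF2A was therefore the main MEF2 transcript in both. By counts the share of MEF2C was 4.95% (3.34 to 7.03) and 16.8% (14.2 to 19.6). MEF2B, the remaining family member, was left out of the sum and was named after its values were seen. It had 8 and 9 counts, below the minimum, or 1.06 and 1.17 FPKM. In wild type that FPKM was above the 0.86 of MEF2C.

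**Figure D3:**
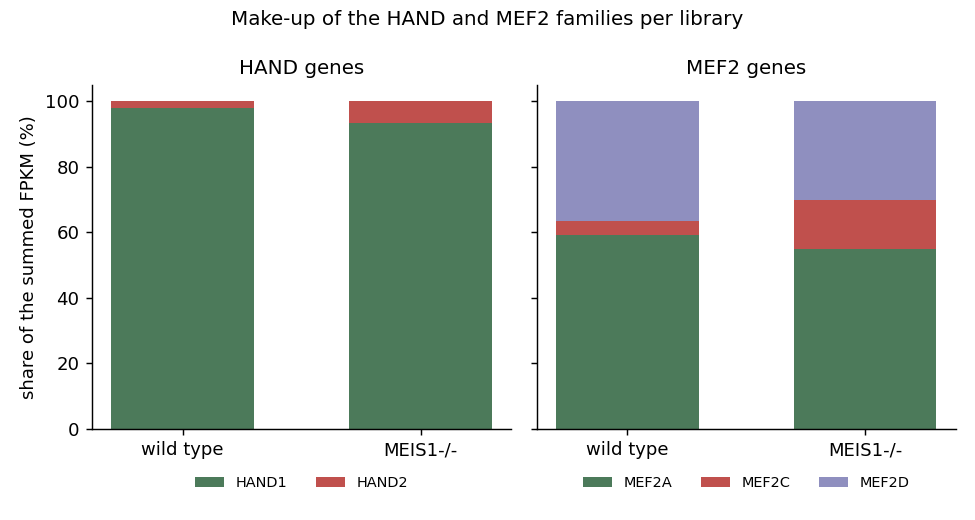
Share of each gene (colours) in the summed FPKM of the HAND genes (left) and of MEF2A, MEF2C and MEF2D (right) per library, stacked from 0 to the full sum, with 1 library per bar. HAND2 takes 1.98% and 6.62% of the HAND level, and MEF2C 4.40% and 15.0% of the MEF2 sum, which leaves out MEF2B.

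The ratios of HAND2 and MEF2C could not be separated from each other, at 0.968 times (0.571 to 1.61). Both exceeded that of NKX2-5, HAND2 by 2.05 times (1.29 to 3.26) and MEF2C by 2.12 times (1.21 to 3.75). SMYD1 was listed for neither library and was taken as 0, so a gene that was not counted cannot be told from one without reads. If it was counted, 0 allows up to 3 counts, a one-sided bound. That is 0.577 CPM (counts scaled to a fixed library total) in wild type and 0.566 CPM in the MEIS1-/- library. No ratio is given for SMYD1.

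The order of the genes by FPKM changed with HAND2, and NKX2-5 and MEF2D traded places. In wild type it ran HAND1, ISL1, MEF2A, MEF2D, NKX2-5, HAND2 and MEF2C, and the counting intervals of the neighbours MEF2D and NKX2-5, and NKX2-5 and HAND2, overlapped. In the MEIS1-/- library it ran HAND1, HAND2, ISL1, MEF2A, NKX2-5, MEF2D and MEF2C, with overlapping intervals for ISL1 and MEF2A and for MEF2A and NKX2-5. HAND1 exceeded the next gene 12.7 times in wild type, where that was ISL1, and 14.1 times in the other library, where it was HAND2. MEF2C was the lowest of the 7 in both.

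Of the 8 genes, 4 lie on chromosome 5 (HAND1, NKX2-5, ISL1 and MEF2C), and 1 each on chromosomes 1, 2, 4 and 15. The 683 measured genes of chromosome 5 had a median log2 ratio of 0.028. The nearest measured gene on each side of every member, with no limit on distance, gave 16 flanking genes. Of these, 2 were higher, 0 lower and 14 had intervals that included 1, with ISL1-DT among the 14. Unmeasured genes between were passed over, so a gene called beside a member need not be adjacent. The genes beside HAND2 (SAP30 and FBXO8), NKX2-5 (BNIP1 and STC2) and MEF2C (TMEM161B and CETN3) were all among those 14. SAP30 had a ratio of 1.29 (0.836 to 2.02) and CETN3 1.06 (0.782 to 1.43). BNIP1 had 20 and 35 counts and a ratio of 1.70 (0.973 to 3.17), a wide interval that also held the 2.02 of NKX2-5. The higher ones were the integrin gene ITGA1 beside ISL1, at 1.60 (1.28 to 2.02), and LRRC28 beside MEF2A, at 1.68 (1.13 to 2.59).

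Other regulators of the heart, a list of 25 genes, were listed for 24 and measured for 17. Of these, 7 were higher, 1 was lower and 9 had intervals that included 1, with a median log2 ratio of 0.38. Over all genes compared, 15.4% were higher and 14.7% lower, shares to be read beside each list that follows. HOPX, a small homeodomain protein of cardiomyoblasts, had 39 and 142 counts, which was 3.54-fold higher (2.51 to 5.28). TBX20, a T-box factor of the heart, had 61 and 116 counts, which was 1.87-fold higher (1.37 to 2.61), and ZFPM2, the GATA cofactor FOG2, had 97 and 176 counts, which was 1.79-fold higher (1.39 to 2.33). TBX18, HEY1 and HEY2 were also among the higher ones. MESP2, a factor of early mesoderm, was the lower one, with 10 and 0 counts, and placing it at its bound left the median at 0.38.

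Several other genes of this list had intervals that included 1. GATA4 had 647 and 609 counts, a ratio of 0.932 (0.833 to 1.04), GATA6 486 and 436 counts, a ratio of 0.888 (0.778 to 1.01), and SRF 432 and 393 counts, a ratio of 0.901 (0.783 to 1.03). MYOCD, the coactivator of SRF, had 218 and 237 counts, a ratio of 1.08 (0.891 to 1.30). TBX5 had 0 and 2 counts, too few for a ratio. GATA4, GATA6, SRF, MYOCD and TBX5, like the single genes TBX18, HEY1, HEY2 and MESP2 above, were named after their values were seen.

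Genes that act on MEF2 proteins (class IIa histone deacetylases, calcineurin, the kinases of the p38, ERK5, CaMK and PKD types and cofactors) were all measured. Of 24, 3 were higher, 5 lower and 16 had intervals that included 1, with a median log2 ratio of -0.13. Both numbers are near the shares over all genes (15.4% higher and 14.7% lower). HDAC9, a deacetylase that represses MEF2 targets, had 85 and 41 counts, which was 2.07-fold lower (1.43 to 3.12). MAPK14, the p38 alpha kinase that phosphorylates MEF2 proteins, had 387 and 568 counts, which was 1.45-fold higher (1.27 to 1.66), and MAP2K3, a kinase that activates p38, was 1.42-fold higher (1.04 to 1.95). HDAC4, HDAC5 and HDAC7, named after their values were seen, had ratios of 0.776 (0.593 to 1.01), 0.903 (0.763 to 1.07) and 0.911 (0.821 to 1.01), so HDAC9 was the only class IIa gene with an interval below 1.

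Partners of HAND, ISL1 and SMYD1 differed little. Of 14 genes 12 were measured, 3 were higher, 1 was lower and 8 had intervals that included 1, with a median log2 ratio of -0.045. The shares over all genes were 15.4% higher and 14.7% lower. The E protein genes TCF3, TCF4 and TCF12, whose products pair with HAND proteins, had ratios of 0.944 (0.868 to 1.03), 1.03 (0.941 to 1.13) and 1.09 (0.994 to 1.20), and were named after their values were seen. LDB2, which bridges LIM homeodomain proteins such as ISL1, had 956 and 694 counts, which was 1.39-fold lower (1.26 to 1.54). LMO4, another LIM protein that binds LDB factors, was 1.30-fold higher (1.08 to 1.56), and NACA, which has a muscle form that binds SMYD1, 1.34-fold higher (1.24 to 1.44).

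Contractile and peptide genes of heart muscle were present in part. Of 19 genes, MYH7, MYL2 and PLN were listed in neither table and 13 were measured, of which 4 were higher, 1 was lower and 8 had intervals that included 1, with a median log2 ratio of 0.26. ACTC1, cardiac actin, had 7920 and 13663 counts, which was 1.71-fold higher (1.66 to 1.76). TPM1, a tropomyosin gene used in many cell types, was 1.68-fold higher (1.59 to 1.77) and MYL4, an atrial and embryonic myosin light chain gene, 1.53-fold higher (1.20 to 1.97). TNNT2, cardiac troponin T, had 28 and 34 counts, a ratio of 1.19 (0.707 to 2.06), and was named after its values were seen, as were ACTN2 (12 and 27 counts), which was higher, and TTN (1341 and 997), which was lower.

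**Figure D4:**
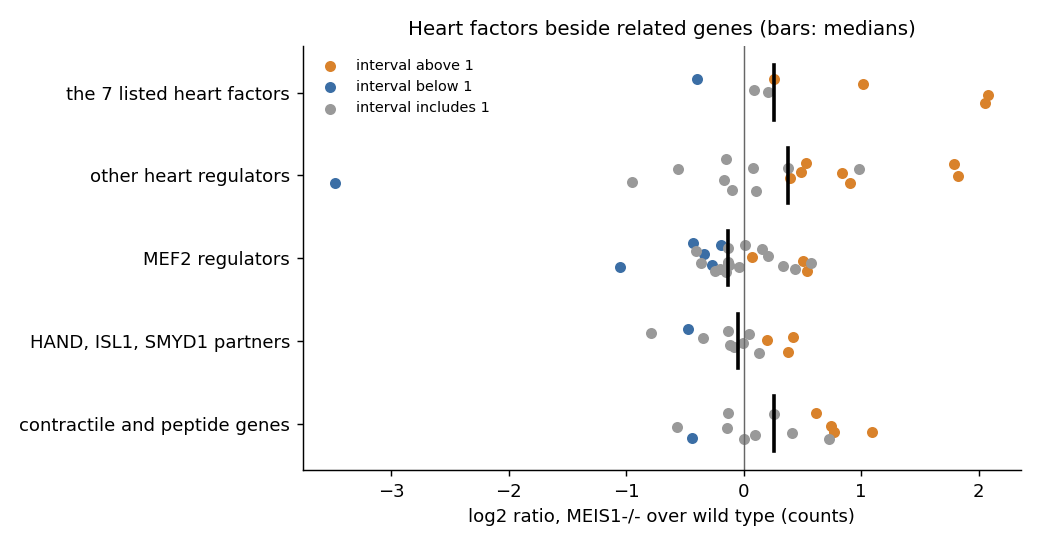
Log2 ratios of the MEIS1-/- library over wild type (x axis, from counts) for the listed heart factors and for the measured genes of 4 related lists (rows), 1 point per gene, coloured by whether the counting interval excluded 1, with black bars for medians (0.26, 0.38, -0.13, -0.045 and 0.26 from the top). Points above 1.5 occur in the upper 2 rows, and the point at the far left is MESP2, which had 0 counts in the MEIS1-/- library, so that its place depends on the pseudocount.

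Markers of further cell types possible at this stage also differed between the libraries, and their part in the results above was not tested. Endothelial markers, of interest for MEF2C, were higher for 8 of 10 measured and lower for 2, and their summed level over 12 genes was 226 FPKM in wild type and 303 in the MEIS1-/- library, with CLDN5 at 0 in both. Fibroblast and smooth muscle markers were higher for 6 of 11, lower for 2 and included 1 for 3 (sums 647 and 795 FPKM, DCN at 0 in both). Amnion and trophoblast markers were higher for 3 of 7, lower for 3 and included 1 for 1 (95.8 and 131 FPKM, CGB5 at 0 in wild type and CGA in the other library). Of that sum, IGFBP3 had 15.85 FPKM in wild type and 58.25 in the MEIS1-/- library, a larger difference than that of the whole sum. ISL1 was 1 of the 3 lower markers, so this list is not separate from the 8 genes. Blood markers were higher for 3 of 6, lower for 1 and included 1 for 2 (18.8 and 33.5 FPKM), with HBZ at 0 in both and HBE1 at 0 in wild type. Here LAPTM5, with 4.73 FPKM in wild type and 21.47 in the MEIS1-/- library, differed by more than the whole sum.

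Markers of the earlier states pointed the other way. Primitive streak markers were lower for 9 of 9 measured, with sums of 201 and 64.0 FPKM, and pluripotency markers for 7 of 9 with the other 2 including 1 (886 and 664 FPKM). None of the markers in these earlier lists was at 0. Endoderm markers were higher for 2 of 9, lower for 2 and included 1 for 5 (137 and 149 FPKM, TTR at 0 in wild type). Within that sum APOA1, with 18.06 FPKM in wild type and 51.93 in the MEIS1-/- library, differed by more than the whole. SOX17 was in both the endothelial and the endoderm list and was 1 of the 2 lower markers in each. Ectoderm markers were lower for 1 of 4 and included 1 for 3 (144 and 129 FPKM, SOX1 and KRT5 at 0 in both).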

How the data were processed

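RNA sequencing of 2 libraries, 1 per genotype, was compared. Each took 2 µg of total RNA, per the labels' protocols. The authors deposited expected counts, estimates of reads per gene without scaling, and FPKM values, scaled for length and depth, per the file headers. The listed lengths are other values from the deposited tables. BWA, Bowtie, RSEM and hg19 are named in the submitters' processing notes, with roles and versions not given in the sources used here, and strand use in counting was not given either.

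In the wild-type and MEIS1-/- tables, 69.36% and 69.95% of expected counts were whole (tolerance 0.005), and all were rounded. Genes absent from a table were taken as 0. Scaling used TMM effective library sizes (edgeR 4.0.16, R 4.3.3), whose ratio was 1.01. Log2 ratios had a pseudocount of 1, and genes with at least 10 counts in a library were compared. Intervals were Clopper-Pearson, conditional on the sum of both counts (scipy 1.17.1). They and the floor of 3 counts leave out all but counting error, and PCR copies of a read are not independent molecules. Of 18518 gene numbers, 18413 matched a RefSeq symbol (GRCh38.p14). The method was checked on simulated counts drawn with counting error only, so that check covers no variation between cultures or libraries. The 8 genes and the 12 related lists were chosen with earlier results of these data known. The genes named are the 8, MEIS1 and up to 3 genes per list with the largest ratios among those with at least 50 counts. Others are named by their position beside a member, as markers at 0 or as marked, and only part of the lists' genes are given, since some are not reported here. Alternatives were other scalings (DESeq2 1.42.0 among them), pseudocounts, FPKM, count minima and fold thresholds.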

Additional observations from a re-analysis of the deposited data

How the results depend on the processing

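No paired analysis was possible because each genotype had 1 library, which also left no replicate to leave out. Of 51 alternative values that could move the ratios of the 7 listed heart genes (the count minimum cannot), 50 stayed within the main counting interval, and all 51 kept their sign. The exception was MEF2C from FPKM with a pseudocount of 1 (log2 ratio 1.34). The 3 genes at least 2-fold higher became 2 with a pseudocount of 5, from FPKM with a pseudocount of 1 and at a threshold of 4-fold. The use of unrounded counts and the sum of HAND2 with HAND2-AS1 were chosen after seeing the data. Over all genes, 417 at least 2-fold higher and 424 at least 2-fold lower became 161 and 171 at a minimum of 50 counts. They became 827 and 893 at 1.5-fold, 111 and 81 at 4-fold, and 182 and 183 from FPKM with a pseudocount of 1. Numbers of genes from FPKM, here and for the 7, used the fold alone without a counting interval. At a minimum of 50 counts the medians of the endoderm and amnion lists, 0.28 and 0.82, turned to -0.17 and -0.32, and fewer genes were compared there. Lower heart regulators, 1 in the main comparison, were 0 at that minimum and 2 at a minimum of 1 count. Lower partners of HAND, ISL1 and SMYD1 went from 1 to 2 with total counts. Higher and lower blood markers, 3 and 1, were 1 and 0 at the minimum of 50 counts. Among other named genes 243 of 245 such values stayed within their interval, and the exceptions were PECAM1 and TIE1 from FPKM (1.76 and 1.68). With counts of 29 and 49 in wild type, MEF2C and NKX2-5 had the widest intervals of the 7 on the log2 scale.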
